A study of Mus musculus with 16 samples.

Results

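The genes described here are the expressed solute carrier genes of 2 mouse stromal lines and of the exosomes those lines release. A gene was taken as a member where its symbol had the form Slc, family number, letter, number, and where its deposited FPKM (fragments per kilobase of transcript, scaled for library depth) was 1 or more in at least 1 of 4 groups. By this rule 168 genes were members, of 301 solute carrier symbols and 24544 genes listed in the FPKM table, and of 14969 genes that passed 1 FPKM in a group. The members were thus chosen by their FPKM values, and their levels are a description. AFT024 and BFC012 are cell lines made from the stroma of C57BL/6 mouse fetal liver at 14.5 dpc (days post coitum). AFT024 is labelled as supportive of hematopoietic stem and progenitor cells and BFC012 as lacking this capacity, and each kind is represented by 1 line. PolyA RNA was sequenced from 4 groups, the exosomes of AFT024 and of BFC012 and the cells of AFT024 and of BFC012, with 2 samples each in the labels. The exosome RNA had been pooled and divided for repeat sequencing, and the tables hold 1 merged value per group. No value therefore has a replicate spread, and no test or p-value across replicates could be made.

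Solute carriers are membrane proteins that move amino acids, sugars, ions, metals, vitamins, nucleotides and other small molecules across the plasma membrane and the membranes of organelles. Families are numbered by sequence relation, so that members of a family mostly carry related substrates. In stromal cells they take up nutrients, load mitochondria and the secretory pathway, and set the ion and metal content of the cell. An mRNA in an exosome is a transcript packed in the vesicle and says nothing of the protein in its membrane.

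Gene reads totalled 9038471 in the exosomes of AFT024 and 16344350 in those of BFC012, against 39385534 in AFT024 cells and 35874383 in BFC012 cells. Solute carrier transcripts took 0.646% of the reads of AFT024 exosomes and 0.626% of BFC012 exosomes, against 1.06% in the cells of AFT024 and 1.09% in those of BFC012. The median member stood at 2.53 FPKM in AFT024 exosomes and 2.97 FPKM in BFC012 exosomes, against 8.42 FPKM in AFT024 cells and 9.16 FPKM in BFC012 cells. In bulk RNA, fewer cells of a type and less RNA per cell cannot be told apart. Of the 6 stromal markers checked, 5 had 20 or more reads in at least 1 group and Thy1 had at most 1 read. Among them Col1a2 was nearly absent from BFC012, with 12 reads in BFC012 cells and 5 in BFC012 exosomes. It had 1717 reads in AFT024 cells and 171 in AFT024 exosomes. Of 4 blood markers, 0 had 20 reads in any group. Of 4 hepatoblast or hepatocyte markers 1 reached this, Afp with 34 reads in BFC012 cells. Of 3 endothelial markers 1 reached it, Kdr with 20 reads in AFT024 cells. Epithelial markers (Cdh1, Epcam and Krt19) summed to 16 reads in AFT024 exosomes and 14 in AFT024 cells, against 121 in BFC012 exosomes and 848 in BFC012 cells. In BFC012 cells Cdh1 held 756 of these reads and Krt19 92. Epcam went the other way, with 0 reads in both BFC012 groups, 1 in AFT024 exosomes and 4 in AFT024 cells. The part of epithelial markers in the differences between the lines was not tested.

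Differences are given on 2 scales. The first is the log2 ratio of FPKM after adding 1, relative to the median of all genes at 1 FPKM or more. The second is the ratio of whole reads, scaled by median-of-ratios size factors, with an exact Clopper-Pearson 95% interval of the split of the gene's reads in brackets, which covers counting error only. A gene is called higher or lower here where both scales, with 1 added to FPKM and to scaled reads, passed 2-fold in the same direction. The library kit does not mark strand, and the exons of 48 of the 168 members overlap another annotated gene, so reads of such pairs cannot be told apart.

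The members filled 14 classes by substrate and 42 families. The largest class was the mitochondrial carriers of family 25, with 33 members, followed by 23 amino acid transporters, 22 metal transporters, 21 ion exchangers and cotransporters, and 20 members of family 35, which brings nucleotide sugars and related molecules into the Golgi and endoplasmic reticulum. At 1 FPKM or more in all 4 groups stood 115 members, and 16 passed in 1 group alone, of them 9 in AFT024 cells and 5 in BFC012 cells. Such members could pass only where they were high, so their differences follow in part from the choice. In 112 of 168 members both exosome FPKM values lay below both cell values, which is 66.7% where 60.6% of all genes did so. In 14 both lay above, which is 8.33% where 11.5% of all genes did so. Of the 168 highest values, AFT024 exosomes held 7 and BFC012 exosomes 18, whereas AFT024 cells held 64 and BFC012 cells 79. The same count over all genes is not given here, so this split is not read as a trait of the members.

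Mitochondrial carriers led every group. Slc25a3, which brings phosphate into the mitochondrial matrix, had 154 FPKM in AFT024 exosomes, 279.7 in BFC012 exosomes, 451 in AFT024 cells and 599 in BFC012 cells. Slc25a4, which exchanges ADP for ATP across the inner membrane, had 71.2 FPKM in AFT024 exosomes, 137 in BFC012 exosomes, 233 in AFT024 cells and 328 in BFC012 cells. Both genes were highest in BFC012 cells and lowest in AFT024 exosomes. Slc25a39, needed for glutathione import into mitochondria, ran the other way, with 249 FPKM in AFT024 exosomes and 269.6 FPKM in BFC012 exosomes, against 152 FPKM in AFT024 cells and 138 FPKM in BFC012 cells. The class made up 49.3% of the members' summed FPKM in exosomes of AFT024 and 54.8% in those of BFC012, against 37.4% in the cells of AFT024 and 42.8% in those of BFC012. In every group most of the class sum came from Slc25a3, Slc25a4 and Slc25a39, so these shares do not describe the class at large. The median log2 FPKM ratio of the class, exosomes against cells relative to the median gene, was -0.27 in AFT024 and -0.23 in BFC012.

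**Figure D1:**
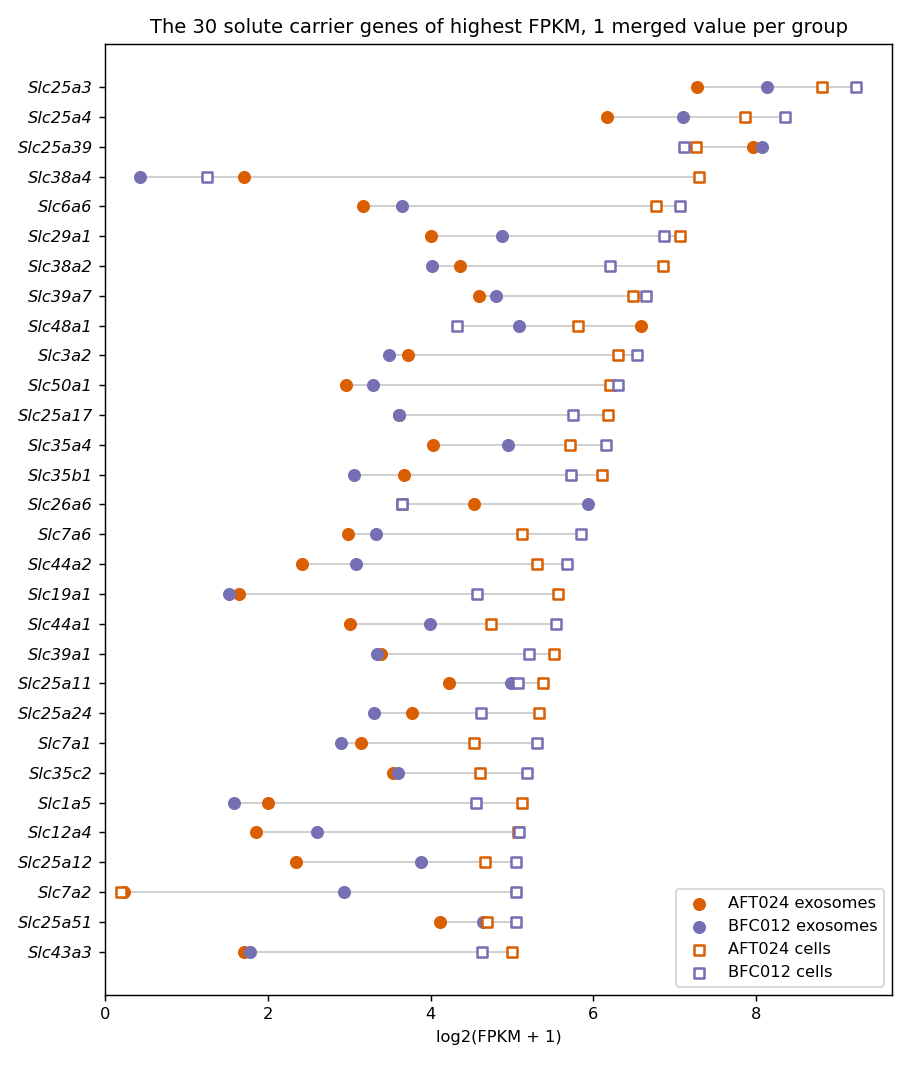
The 30 members of highest FPKM, with log2(FPKM + 1) on the horizontal axis and 1 merged value per group (filled circles, exosomes; open squares, cells; orange, AFT024; violet, BFC012). Most genes have both exosome values left of both cell values, Slc25a39 has them to the right, and Slc38a4 stands apart in AFT024 cells at 157 FPKM.

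Outside family 25 the highest member was Slc48a1, a heme transporter of endosomes and lysosomes, in AFT024 exosomes, at 95.5 FPKM. In BFC012 exosomes it was Slc26a6, an anion exchanger for chloride, bicarbonate and oxalate, at 60.4 FPKM. In cells the leading members outside the family differed between the lines. AFT024 cells had Slc38a4, which takes up neutral amino acids together with sodium, at 157 FPKM and Slc29a1, the equilibrative nucleoside transporter, at 133 FPKM. BFC012 cells had Slc6a6, the taurine transporter, at 133 FPKM and Slc29a1 at 116 FPKM. The 3 highest members of each group took 38.7% of the members' FPKM in exosomes of AFT024 and 40.5% in those of BFC012, against 23.9% in AFT024 cells and 29.4% in BFC012 cells.

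Exosomes were first set against the cells that released them. In AFT024, 23 members were higher in exosomes, where 15.7% of all 14859 genes with both scales were higher, and 37 were lower, where 16.2% of all genes were lower. In BFC012, 18 members were higher, where 15.3% of all genes were higher, and 41 were lower, where 16.4% were lower. These calls are 13.7% and 22.02% of the members in AFT024 and 10.7% and 24.4% in BFC012. The median member lay -0.19 from the median gene on the log2 FPKM scale in AFT024 and -0.23 in BFC012. On the read scale the median member was -0.51 against -0.08 for all genes in AFT024, and -0.54 against 0 in BFC012. The median gene itself stood at -1.11 in AFT024 and -0.80 in BFC012 before centring, so the split rests on the scale. On FPKM as deposited, with reads not used, 5 members were higher and 100 lower in AFT024 exosomes, and 5 were higher and 85 lower in BFC012 exosomes. On that scale the median gene of AFT024 was itself past 2-fold lower, at -1.11. The share of all genes called on it is not given here, so these counts cannot be set beside the shares above.

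The comparisons of the 2 lines share no group. Lower in the exosomes of both lines were 31 members, which is 18.5% of members where 10.6% of all genes were lower in both. They were 31 of the 37 lower in AFT024 and 31 of the 41 lower in BFC012. Higher in both were 15 members, or 8.93% where 10.3% of all genes were higher in both, and 1 member was higher in one line and lower in the other. Among the 31 lower members were plasma membrane carriers of glucose, lactate, glutamine, taurine, folate and nucleosides. Their median level was 2.60 FPKM in AFT024 exosomes and 3.11 FPKM in BFC012 exosomes, against 26.6 FPKM in AFT024 cells and 23.8 FPKM in BFC012 cells, and each had at least 21 reads in every group. The 15 higher members had a median of 6.80 FPKM in AFT024 exosomes and 13.4 FPKM in BFC012 exosomes, against 4.75 FPKM in AFT024 cells and 6.72 FPKM in BFC012 cells. Both sets were chosen by these values, so the gaps between exosomes and cells restate the calls. With 1 added to FPKM, a gene near 0 FPKM in cells could not be called lower, so the cell levels are also set in part by the rule.

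**Figure D2:**
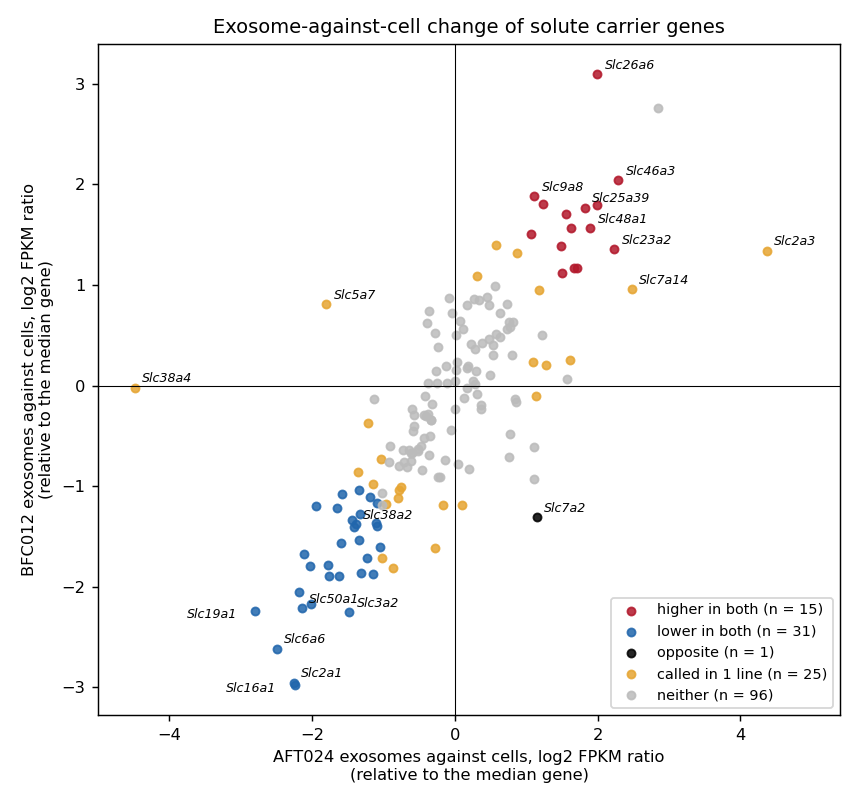
Log2 FPKM ratio of exosomes against cells relative to the median gene, AFT024 on the horizontal and BFC012 on the vertical axis, 1 point per member. The 31 members lower in both lines fill the lower left, the 15 higher in both the upper right, and Slc7a2 is the only member called in opposite directions.

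Among the carriers of glucose and lactate, Slc2a1, the glucose transporter GLUT1, had 0.7403 FPKM and 38 reads in AFT024 exosomes, against 17.03 FPKM and 1985 reads in AFT024 cells. In BFC012 it had 0.916 FPKM and 62 reads in BFC012 exosomes, against 24.9 FPKM and 2672 reads in BFC012 cells. The ratios in reads were 0.112 (0.0788 to 0.154) in AFT024 and 0.0721 (0.0551 to 0.0927) in BFC012, so that GLUT1 transcripts were lower in both exosome groups. Slc16a1, the monocarboxylate transporter MCT1, had 1.098 FPKM and 98 reads in AFT024 exosomes, against 20.52 FPKM and 4187 reads in AFT024 cells. In BFC012 it had 1.07 FPKM and 128 reads in BFC012 exosomes, against 27.4 FPKM and 5163 reads in BFC012 cells. Its ratios in reads were 0.137 (0.111 to 0.167) in AFT024 and 0.07704 (0.0641 to 0.0918) in BFC012, beside those of Slc2a1. Slc50a1, a sugar carrier of the SWEET family, had 6.76 FPKM and 86 reads in AFT024 exosomes, against 73.1 FPKM and 1236 reads in AFT024 cells, and 8.76 FPKM and 90 reads in BFC012 exosomes, against 78.2 FPKM and 1250 reads in BFC012 cells. It too was lower in both lines, with ratios in reads of 0.406 (0.322 to 0.505) in AFT024 and 0.224 (0.179 to 0.277) in BFC012. Bsg, which is no solute carrier but the chaperone that brings MCT1 to the cell surface, was lower in exosomes as well, at 25.6 FPKM in AFT024 exosomes against 389 FPKM in AFT024 cells and 16.7 FPKM in BFC012 exosomes against 228 FPKM in BFC012 cells.

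Amino acid carriers held 6 lower and 5 higher members of 23 in AFT024 exosomes, and 10 lower and 2 higher in BFC012 exosomes. By the same rule 16.2% of all genes were lower and 15.7% higher in AFT024 exosomes. For BFC012 exosomes these shares were 16.4% and 15.3%. The counts by class, here and below, were not tested and are not read as results about a class. Slc6a6 had 8.01 FPKM and 1016 reads in AFT024 exosomes, against 109 FPKM and 31428 reads in AFT024 cells, and 11.5 FPKM and 1962 reads in BFC012 exosomes, against 133 FPKM and 35509 reads in BFC012 cells. In reads, the ratio of exosomes to cells was 0.189 (0.177 to 0.201) for AFT024 and 0.172 (0.164 to 0.1797) for BFC012. Slc1a5, the glutamine transporter ASCT2, had 3.01 FPKM and 163 reads in AFT024 exosomes, against 33.9 FPKM and 4268 reads in AFT024 cells, and 2.001 FPKM and 147 reads in BFC012 exosomes, against 22.6 FPKM and 2614 reads in BFC012 cells. Slc3a2, the heavy chain that carries several amino acid exchangers to the plasma membrane, had 12.2 FPKM and 603 reads in AFT024 exosomes, against 78.4 FPKM and 8992 reads in AFT024 cells, and 10.2 FPKM and 657 reads in BFC012 exosomes, against 92.1 FPKM and 9738 reads in BFC012 cells. Slc38a2, a sodium-coupled neutral amino acid transporter of system A, had 19.5 FPKM and 1842 reads in AFT024 exosomes, against 115 FPKM and 24849 reads in AFT024 cells, and 15.2 FPKM and 1924 reads in BFC012 exosomes, against 72.6 FPKM and 14391 reads in BFC012 cells. All of these 4 genes were lower in the exosomes of both lines, and Slc43a3, a purine nucleobase carrier of the same class by family, was lower as well with ratios in reads of 0.189 (0.156 to 0.227) in AFT024 and 0.197 (0.167 to 0.231) in BFC012.

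Lower in BFC012 exosomes and not called in AFT024 exosomes were 4 amino acid carriers, Slc7a1, Slc7a6, Slc7a11 and Slc38a7. Slc7a1, the cationic amino acid transporter CAT1, had 7.803 FPKM and 1155 reads in AFT024 exosomes, against 22.1 FPKM and 7459 reads in AFT024 cells, a ratio in reads of 0.903 (0.848 to 0.961). In BFC012 the same gene had 6.44 FPKM and 1275 reads in BFC012 exosomes, against 38.8 FPKM and 12039 reads in BFC012 cells, a ratio in reads of 0.329 (0.3104 to 0.349). Slc7a11, the cystine and glutamate exchanger, had 6.23 FPKM and 64 reads in AFT024 exosomes, against 16.5 FPKM and 411 reads in AFT024 cells, a ratio in reads of 0.908 (0.687 to 1.18). In BFC012 it had 1.53 FPKM and 25 reads in BFC012 exosomes, against 9.04 FPKM and 263 reads in BFC012 cells, a ratio in reads of 0.295 (0.188 to 0.446). The counting intervals of the lines lay apart for both genes, and the difference between the lines has no replicate check. Slc7a6 and Slc38a7 just missed the rule in AFT024 exosomes, Slc7a6 with log2 ratios of -1.02 in FPKM and -0.93 in reads and Slc38a7 with -0.96 in FPKM and -1.43 in reads.

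Metal carriers were lower in 7 of 22 members in AFT024 exosomes and in 8 of 22 in BFC012 exosomes, and 2 were higher in each. Over all genes 16.2% were lower and 15.7% higher in AFT024 exosomes, and 16.4% and 15.3% in BFC012 exosomes. Family 39, the ZIP proteins, which bring zinc into the cytosol, had 4 of 9 members lower in AFT024 and 5 of 9 lower in BFC012. Slc39a10, one of its plasma membrane members, had 0.287 FPKM and 32 reads in AFT024 exosomes, against 7.55 FPKM and 1917 reads in AFT024 cells, and 0.326 FPKM and 49 reads in BFC012 exosomes, against 7.63 FPKM and 1795 reads in BFC012 cells. Slc39a6 had 3.84 FPKM and 297 reads in AFT024 exosomes, against 26.9 FPKM and 4739 reads in AFT024 cells, and 3.39 FPKM and 356 reads in BFC012 exosomes, against 19.4 FPKM and 3155 reads in BFC012 cells. Both lay far below their cells in either line. Slc39a14, which takes up zinc, iron and manganese, was lower in AFT024, at 2.295 FPKM and 230 reads in AFT024 exosomes, against 13.7 FPKM and 3127 reads in AFT024 cells, and met no rule in BFC012, at 4.91 FPKM and 663 reads in BFC012 exosomes, against 16.2 FPKM and 3406 reads in BFC012 cells. Of the ZnT proteins, which move zinc out of the cytosol, Slc30a6 was lower in both lines with ratios in reads of 0.129 (0.0797 to 0.199) in AFT024 and 0.122 (0.0826 to 0.173) in BFC012. Slc30a4, another ZnT member, had 20.1 FPKM and 2243 reads in AFT024 exosomes, against 20.3 FPKM and 5160 reads in AFT024 cells, and 19.1 FPKM and 2867 reads in BFC012 exosomes, against 28.98 FPKM and 6792 reads in BFC012 cells. It was called higher in AFT024 exosomes, with a ratio in reads of 2.54 (2.41 to 2.67), and not in BFC012 exosomes, with 1.31 (1.26 to 1.37). Slc31a1, the copper importer CTR1, was lower in both with 0.424 (0.368 to 0.486) in AFT024 and 0.232 (0.203 to 0.265) in BFC012.

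The metal carriers called higher were Slc40a1 in both lines, Slc30a4 in AFT024 and Slc39a3 in BFC012, where the last had 8.13 FPKM and 770 reads in BFC012 exosomes, against 5.05 FPKM and 764 reads in BFC012 cells, a ratio in reads of 3.13 (2.83 to 3.47). Slc40a1 is ferroportin, the iron exporter. It had 0.976 FPKM and 66 reads in AFT024 exosomes, against 0.345 FPKM and 53 reads in AFT024 cells, and 1.32 FPKM and 120 reads in BFC012 exosomes, against 0.806 FPKM and 115 reads in BFC012 cells. Exosome to cell ratios in reads were 7.27 (4.98 to 10.6) for AFT024 and 3.24 (2.49 to 4.22) for BFC012, at low FPKM in every group, and with FPKM scaled to the median gene before 1 is added it was no longer called in BFC012. Slc11a2, the iron and manganese importer DMT1, was called in neither line, at 8.17 FPKM and 684 reads in AFT024 exosomes, against 29.9 FPKM and 5494 reads in AFT024 cells, and 5.79 FPKM and 657 reads in BFC012 exosomes, against 17.4 FPKM and 2834 reads in BFC012 cells.

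Of the 7 vitamin and cofactor carriers, AFT024 exosomes had 3 higher and 1 lower, and BFC012 exosomes had 4 higher and 1 lower. Slc48a1, the heme transporter, had 95.5 FPKM and 3568 reads in AFT024 exosomes, against 55.1 FPKM and 5316 reads in AFT024 cells, and 32.98 FPKM and 2006 reads in BFC012 exosomes, against 19.04 FPKM and 1814 reads in BFC012 cells. In reads, the ratio of exosomes to cells was 3.92 (3.75 to 4.09) for AFT024 and 3.44 (3.22 to 3.66) for BFC012, and its exons overlap Hdac7. Slc23a2, a sodium-coupled carrier of ascorbate (vitamin C), had 21.7 FPKM and 2844 reads in AFT024 exosomes, against 9.44 FPKM and 2817 reads in AFT024 cells, and 15.7 FPKM and 2750 reads in BFC012 exosomes, against 10.4 FPKM and 2847 reads in BFC012 cells. With 5.89 (5.59 to 6.21) in AFT024 and 3.002 (2.85 to 3.16) in BFC012, Slc23a2 was higher in both on many reads. Slc19a1, the reduced folate carrier, was the lower member in both lines, at 2.13 FPKM and 97 reads in AFT024 exosomes, against 46.2 FPKM and 4736 reads in AFT024 cells, and 1.88 FPKM and 113 reads in BFC012 exosomes, against 22.7 FPKM and 2228 reads in BFC012 cells. Slc52a2, a riboflavin transporter, was higher in BFC012 exosomes, at 6.17 FPKM and 445 reads in BFC012 exosomes, against 4.899 FPKM and 551 reads in BFC012 cells, and Slc46a3, a lysosomal carrier, met the rule in both lines on only 6 reads in AFT024 exosomes and 22 in BFC012 exosomes.

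The ion exchangers gave calls in both directions. Slc26a6 had 22.1 FPKM and 201 reads in AFT024 exosomes, against 11.6 FPKM and 414 reads in AFT024 cells, and 60.4 FPKM and 1015 reads in BFC012 exosomes, against 11.6 FPKM and 410 reads in BFC012 cells. The ratio in reads was 2.83 (2.38 to 3.36) for AFT024 and 7.69 (6.85 to 8.65) for BFC012, and the level in BFC012 exosomes stood above the other 3 groups. Slc26a2, a sulfate transporter, was higher in both lines with 4.63 (4.11 to 5.23) in AFT024 and 2.86 (2.56 to 3.19) in BFC012. Slc9a8, a sodium and proton exchanger of endosomes and the Golgi, had 11.3 FPKM and 851 reads in AFT024 exosomes, against 11.3 FPKM and 2257 reads in AFT024 cells, and 30.8 FPKM and 3103 reads in BFC012 exosomes, against 14.1 FPKM and 2452 reads in BFC012 cells. In AFT024 its FPKM was equal in exosomes and cells to 3 digits, so that its call there rests on centring at the median gene. For Slc9a8, Slc37a3 and Slc30a4 centring changed the sign of the ratio in AFT024. Most other higher calls of AFT024 exosomes also passed 2-fold in FPKM only after centring. Among them are Slc25a39, at a log2 ratio of 0.71 before centring, and Slc48a1, at 0.78. Slc12a4, a potassium and chloride cotransporter, was lower in both lines, at 2.62 FPKM and 201 reads in AFT024 exosomes, against 32.8 FPKM and 5782 reads in AFT024 cells, and 5.07 FPKM and 525 reads in BFC012 exosomes, against 32.9 FPKM and 5372 reads in BFC012 cells. Slc12a2, the sodium, potassium and chloride cotransporter NKCC1, was lower in both as well, with ratios in reads of 0.257 (0.205 to 0.319) in AFT024 and 0.196 (0.166 to 0.2301) in BFC012.

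Of the nucleoside carriers 2 of 3 members were lower in both lines, where 10.6% of all genes were lower in both. Among 3 members this is no result about the class. Slc29a1 had 15.1 FPKM and 638 reads in AFT024 exosomes, against 133 FPKM and 11322 reads in AFT024 cells, and 28.3 FPKM and 1424 reads in BFC012 exosomes, against 116 FPKM and 9115 reads in BFC012 cells. Exosome to cell ratios in reads were 0.329 (0.303 to 0.356) for AFT024 and 0.485 (0.459 to 0.513) for BFC012, and that of Slc29a2, its close relative, was 0.203 (0.138 to 0.289) for AFT024 and 0.168 (0.119 to 0.232) for BFC012. Slc20a2, a phosphate importer, was lower in both with 0.229 (0.197 to 0.264) in AFT024 and 0.295 (0.264 to 0.328) in BFC012, whereas its relative Slc20a1 met no rule in either, with 0.853 (0.782 to 0.9297) in AFT024 and 0.861 (0.792 to 0.934) in BFC012. Slc44a2, a choline-transporter-like protein, was lower in both with 0.282 (0.2499 to 0.316) in AFT024 and 0.295 (0.273 to 0.319) in BFC012. In the sugar phosphate family 37, Slc37a4, which brings glucose 6-phosphate into the endoplasmic reticulum, was higher in both, at 6.801 FPKM and 274 reads in AFT024 exosomes, against 4.75 FPKM and 437 reads in AFT024 cells, and 13.4 FPKM and 722 reads in BFC012 exosomes, against 6.72 FPKM and 565 reads in BFC012 cells.

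**Figure D3:**
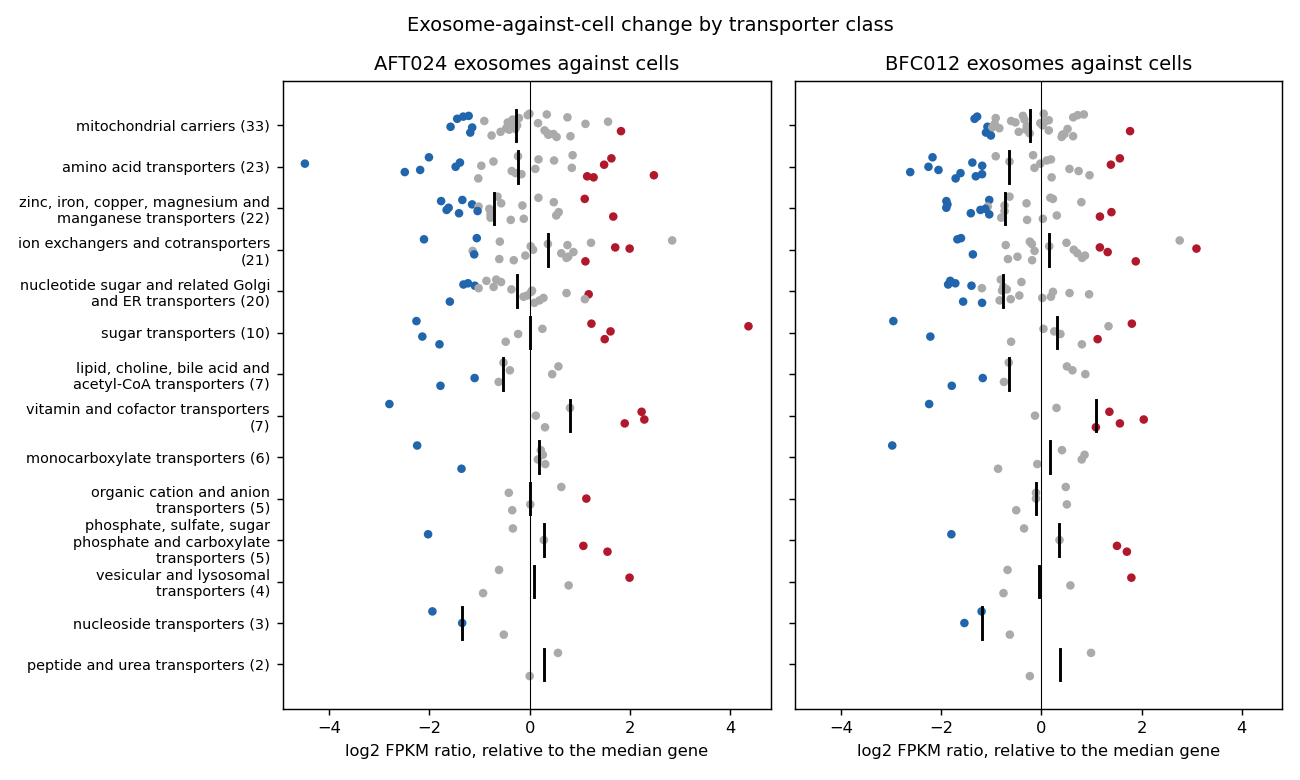
Log2 FPKM ratio of exosomes against cells relative to the median gene, by transporter class with the number of members, AFT024 left and BFC012 right. Each point is a member (red, higher; blue, lower; grey, neither) and the black bar is the class median, which lies at -0.71 and -0.74 for metal transporters and at 0.81 and 1.09 for vitamin and cofactor transporters.

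Among the mitochondrial carriers, 6 of 33 members were lower and 1 was higher in AFT024 exosomes. In BFC012 exosomes 5 were lower and 1 was higher. The shares of all genes were 16.2% lower and 15.7% higher in AFT024 exosomes, and 16.4% and 15.3% in BFC012 exosomes. The lower counts lie near these shares. The higher member was Slc25a39 in both lines, at 249 FPKM and 4435 reads in AFT024 exosomes, against 152 FPKM and 6243 reads in AFT024 cells, and 269.6 FPKM and 6489 reads in BFC012 exosomes, against 138 FPKM and 5026 reads in BFC012 cells. In reads, the ratio of exosomes to cells was 4.14 (3.99 to 4.31) for AFT024 and 4.01 (3.87 to 4.16) for BFC012. Slc25a3 had ratios in reads of 0.948 (0.914 to 0.984) in AFT024 and 1.07 (1.04 to 1.096) in BFC012, and Slc25a4 had 0.786 (0.754 to 0.818) in AFT024 and 0.829 (0.806 to 0.851) in BFC012, both short of 2-fold. Slc25a17, which carries cofactors into peroxisomes, was lower in both lines, at 11.3 FPKM and 351 reads in AFT024 exosomes, against 71.3 FPKM and 5094 reads in AFT024 cells, and 11.2 FPKM and 468 reads in BFC012 exosomes, against 52.8 FPKM and 3470 reads in BFC012 cells. The aspartate and glutamate carrier Slc25a13 was also lower in both, with 0.284 (0.2298 to 0.348) in AFT024 and 0.3798 (0.342 to 0.421) in BFC012. Its paralogue Slc25a12 was lower in AFT024, with 0.4498 (0.392 to 0.514), and not called in BFC012, with 0.638 (0.589 to 0.691).

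In family 35, 4 of 20 members were lower in AFT024 exosomes and 6 in BFC012 exosomes. All genes had shares of 16.2% and 16.4% lower, and the counts were not tested. Slc35b1, which exchanges ATP and ADP across the membrane of the endoplasmic reticulum, had 11.8 FPKM and 283 reads in AFT024 exosomes, against 68.2 FPKM and 3855 reads in AFT024 cells, and 7.35 FPKM and 237 reads in BFC012 exosomes, against 51.98 FPKM and 2729 reads in BFC012 cells. Slc35a4, which led the class in both BFC012 groups, had 15.3 FPKM in AFT024 exosomes and 29.97 FPKM in BFC012 exosomes, against 51.4 FPKM in AFT024 cells and 70.3 FPKM in BFC012 cells, and met no rule. Slc35e1 was the 1 higher member of AFT024, at 16.7 FPKM and 1484 reads in AFT024 exosomes, against 15.9 FPKM and 3216 reads in AFT024 cells. In BFC012 Slc35e1 had 29.7 FPKM and 3550 reads in BFC012 exosomes, against 26.7 FPKM and 4982 reads in BFC012 cells. It fell just short of 2-fold on the FPKM scale there, and was called with FPKM scaled to the median gene before 1 is added.

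A single member was called in opposite directions. Slc7a2, the cationic amino acid transporter CAT2, had 0.168 FPKM and 20 reads in AFT024 exosomes, against 0.142 FPKM and 35 reads in AFT024 cells, a ratio in reads of 3.33 (1.82 to 5.94), and was called higher in AFT024 exosomes. In BFC012 it had 6.66 FPKM and 1390 reads in BFC012 exosomes, against 32.1 FPKM and 10608 reads in BFC012 cells, a ratio in reads of 0.407 (0.385 to 0.431), and was lower in exosomes. The AFT024 call rests on few reads and was lost with FPKM scaled to the median gene before 1 is added. Before centring the log2 FPKM ratio of Slc7a2 in AFT024 was 0.03, and after centring it was 1.15. With the median gene at -1.11, a gene of equal FPKM in AFT024 exosomes and cells passes 2-fold on this scale by centring alone. Of all genes, 9 were higher in AFT024 exosomes and lower in BFC012 exosomes by the same rule. The exons of Slc7a2 overlap the annotated gene Gm26584.

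Properties that the rule did not use were set beside the exosome calls. The median length of all annotated exons joined was 5411 bases for the 15 higher members and 4426 for the 31 lower ones, against 4955 for the 96 members called in neither line. The ranges overlapped from end to end, at 2458 to 12370 bases for the higher and 1466 to 15205 for the lower members. Exons of another gene overlapped 2 of the 15 and 8 of the 31.

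The lines were then compared, first in cells. In AFT024 cells 14 members were higher, where 5.61% of all genes were higher, and 10 were lower, where 3.77% were lower than in BFC012 cells. These are 8.33% and 5.95% of the members. The median member lay at -0.07 relative to the median gene. Of the 140 members at 1 FPKM or more in both kinds of cell, 6 were higher in AFT024, or 4.29% where 3.75% of the 12440 genes under this filter were higher. A further 2 were lower, or 1.43% where 2.14% of these genes were lower.

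Slc38a4 had the largest log2 FPKM ratio of the members. It had 157 FPKM and 24374 reads in AFT024 cells, against 1.37 FPKM and 228 reads in BFC012 cells, a ratio in reads of 99.5 (87.3 to 114) and a log2 FPKM ratio of 6.08. AFT024 cells stood far above the other 3 groups. Its level in AFT024 exosomes, 2.26 FPKM from 180 reads, was far below that of the cells and still above BFC012 exosomes, at 0.337 FPKM from 37 reads. Against their own cells the ratio in reads was 0.0431 (0.03700 to 0.0499) in AFT024 exosomes, which were called lower, and 0.504 (0.346 to 0.716) in BFC012 exosomes, which were not called. The other system A genes lie beside it on chromosome 15. Slc38a1 had 23.7 FPKM and 8043 reads in AFT024 cells, against 9.39 FPKM and 2919 reads in BFC012 cells, and was higher in AFT024 with a ratio in reads of 2.56 (2.46 to 2.68). Slc38a2 had 115 FPKM and 24849 reads in AFT024 cells, against 72.6 FPKM and 14391 reads in BFC012 cells, and was not called, with 1.61 (1.57 to 1.64). In mm10 the loci listed are chr15:96571417-96642913 for Slc38a1, chr15:96687393-96699698 for Slc38a2 and chr15:96994822-97055956 for Slc38a4.

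Slc5a7, the high-affinity choline transporter of family 5, had 12.6 FPKM and 3025 reads in AFT024 cells, against 0.004504 FPKM and 1 read in BFC012 cells. Its ratio in reads was 2816 (505 to 111251), an interval that is wide since 1 read stands in BFC012. Slc5a7 passed 1 FPKM in AFT024 cells alone, with 0.800 FPKM in AFT024 exosomes, so its difference follows in part from the choice of members. Slc6a17, a vesicular transporter of neutral amino acids known from neurons, had 9.19 FPKM and 2503 reads in AFT024 cells, against 0.0568 FPKM and 8 reads in BFC012 cells, a ratio in reads of 291 (148 to 675). Slc4a8, a sodium-driven chloride and bicarbonate exchanger, had 5.803 FPKM and 1279 reads in AFT024 cells, against 0.216 FPKM and 38 reads in BFC012 cells, a ratio in reads of 31.3 (22.7 to 44.5). All of these genes stood near 0 in BFC012 cells and well above it in AFT024 cells. Slc4a4, a sodium bicarbonate cotransporter, had 1.22 FPKM and 455 reads in AFT024 cells, against 0.0783 FPKM and 26 reads in BFC012 cells, a ratio in reads of 16.3 (10.97 to 25.2). The fatty acid transport genes Slc27a1, at 3.39 FPKM and 438 reads in AFT024 cells, against 1.100 FPKM and 126 reads in BFC012 cells, and Slc27a3, at 9.05 FPKM and 564 reads in AFT024 cells, against 2.12 FPKM and 120 reads in BFC012 cells, were both higher in AFT024.

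Slc48a1 was the most abundant higher member after Slc38a4. It had 55.1 FPKM and 5316 reads in AFT024 cells, against 19.04 FPKM and 1814 reads in BFC012 cells, a ratio in reads of 2.73 (2.59 to 2.88). The same gene was higher in exosomes than in cells of both lines, so that its order was AFT024 exosomes, AFT024 cells, BFC012 exosomes, BFC012 cells.

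**Figure D4:**
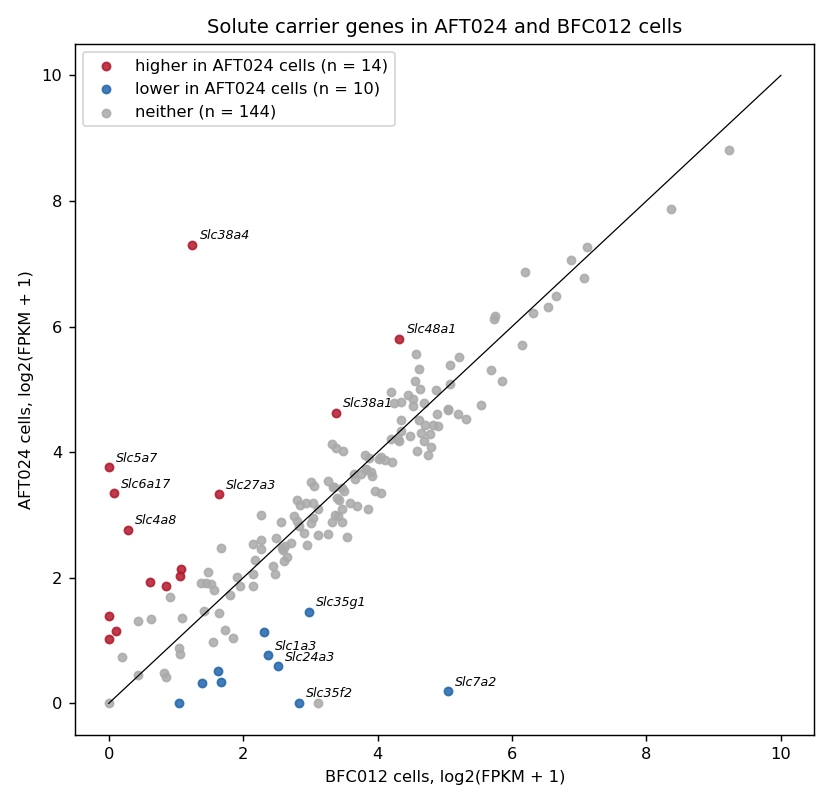
Log2(FPKM + 1) of each member in AFT024 cells (vertical) and BFC012 cells (horizontal), with the line of equal values. The 14 higher members (red) and 10 lower members (blue) are set apart from the other 144 (grey), and Slc38a4 and Slc7a2 lie farthest from the line.

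In the other direction Slc7a2 had 0.142 FPKM and 35 reads in AFT024 cells, against 32.1 FPKM and 10608 reads in BFC012 cells. The ratio in reads was 0.00307 (0.00214 to 0.00427), and the log2 FPKM ratio of -4.84 was the lowest of the members. Its level was high in BFC012 cells alone, with BFC012 exosomes next and both AFT024 groups near 0. Slc7a1, the related CAT1 gene, had 22.1 FPKM and 7459 reads in AFT024 cells, against 38.8 FPKM and 12039 reads in BFC012 cells, and was not called. Slc35f2 had 0.00873 FPKM and 1 read in AFT024 cells, against 6.13 FPKM and 645 reads in BFC012 cells, a ratio in reads of 0.00144 (3.65e-05 to 0.00807). Slc1a3, a glutamate transporter, had 0.704 FPKM and 65 reads in AFT024 cells, against 4.15 FPKM and 723 reads in BFC012 cells, a ratio in reads of 0.0837 (0.0639 to 0.108). Slc24a3, a potassium-dependent sodium and calcium exchanger, had 0.509 FPKM and 85 reads in AFT024 cells, against 4.73 FPKM and 724 reads in BFC012 cells, and Slc8a1, the sodium and calcium exchanger NCX1, had 0.2701 FPKM and 34 reads in AFT024 cells, against 2.19 FPKM and 267 reads in BFC012 cells. Both calcium exporters were lower in AFT024 cells, and so were Slc2a9, Slc7a4, Slc22a23, Slc35g1 and Slc43a1.

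Of the 14 classes, 5 had 0 calls between the cells by this rule, where 5.61% of all genes were higher and 3.77% lower. These classes were the 33 mitochondrial carriers, 22 metal transporters, 4 vesicular and lysosomal transporters, 3 nucleoside transporters and 2 peptide transporters. Their median log2 FPKM ratios were, in the same order, -0.07, -0.06, 0.33, 0.18 and -0.06. At such shares, 0 calls among 2 to 4 members is no result about a class. Among genes at 1 FPKM or more in both kinds of cell the shares were only 3.75% higher and 2.14% lower. Few calls would then fall among 33 or 22 members, so 0 calls among the mitochondrial carriers or metal transporters is not read as a result either. Among the mitochondrial carriers, Slc25a26 is listed at 0 FPKM in AFT024 cells with 392 reads. It was not called, since the read scale fell short of 2-fold. Slc2a1 had a ratio in reads of 0.691 (0.652 to 0.733) and Slc16a1 of 0.755 (0.725 to 0.786), both short of 2-fold. Slc19a1 had 46.2 FPKM and 4736 reads in AFT024 cells, against 22.7 FPKM and 2228 reads in BFC012 cells, and missed the rule on the read scale alone, at 1.98 (1.88 to 2.08). Emb, another chaperone of monocarboxylate transporters, was higher in AFT024 cells with 19.9 FPKM, against 0.426 FPKM in BFC012 cells.

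Promoter sequence is shown for 4 members, namely the 2 carriers that set AFT024 cells furthest above BFC012 cells on the FPKM scale, a carrier high in both exosome groups, and the cystine exchanger Slc7a11 whose exosome level differed between the lines. Each is the run of 250 bases before the RefSeq start site nearest the listed gene start, in build GRCm38.p6, 5′ to 3′ on the strand of the gene. In the first 3, capitals mark CpG dinucleotides. In Slc7a11, capitals mark matches to TGATGNAA, a motif bound by the amino acid response factor ATF4 together with C/EBP proteins, searched on both strands.
Slc38a4: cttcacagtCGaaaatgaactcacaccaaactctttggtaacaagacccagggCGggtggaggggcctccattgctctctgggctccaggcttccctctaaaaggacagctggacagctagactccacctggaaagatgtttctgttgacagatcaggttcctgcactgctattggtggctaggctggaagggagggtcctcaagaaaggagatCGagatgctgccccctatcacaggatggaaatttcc
Slc5a7: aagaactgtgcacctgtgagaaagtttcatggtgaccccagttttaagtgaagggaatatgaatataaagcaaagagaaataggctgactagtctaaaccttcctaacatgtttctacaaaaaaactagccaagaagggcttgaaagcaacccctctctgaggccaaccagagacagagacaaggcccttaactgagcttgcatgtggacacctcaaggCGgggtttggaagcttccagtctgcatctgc
Slc23a2: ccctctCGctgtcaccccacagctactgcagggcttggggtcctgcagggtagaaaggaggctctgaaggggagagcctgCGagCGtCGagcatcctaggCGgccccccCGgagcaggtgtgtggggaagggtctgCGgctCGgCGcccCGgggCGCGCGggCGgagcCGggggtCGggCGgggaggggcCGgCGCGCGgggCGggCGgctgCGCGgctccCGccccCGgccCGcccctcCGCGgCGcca
Slc7a11: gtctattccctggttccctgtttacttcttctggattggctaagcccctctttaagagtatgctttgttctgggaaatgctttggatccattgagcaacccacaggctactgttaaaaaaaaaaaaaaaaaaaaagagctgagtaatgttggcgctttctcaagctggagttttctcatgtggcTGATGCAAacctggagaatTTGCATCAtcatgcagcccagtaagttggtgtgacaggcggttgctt
These lie at chr15:97055957-97056206, chr17:54299035-54299284, chr2:132145109-132145358 and chr3:50443614-50443863, all on the minus strand.

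The window shown for Slc38a4 held 3 CpG and that for Slc5a7 held 1, whereas that for Slc23a2 held 31. RefSeq lists other start sites for Slc38a4, with 5 CpG in each of 2 further windows, and for Slc23a2, with 13 in 1 further window that overlaps the one shown. Over all 32851 windows of this length the median was 6, and over the 131 members with a window it was 16. As few CpG as in Slc38a4 were found in 37.8% of all windows, as few as in Slc5a7 in 18.8%, and as few as in Slc23a2 in 95.4%. The medians were 14 for the 11 matched members higher in AFT024 cells, 12.5 for the 8 lower and 16 for the 112 others, with ranges from 1 to 44, 1 to 35 and 1 to 40. The motif TGATGNAA was in 2 of the 131 member windows, or 1.53%, and in 3.45% of all windows. Slc7a11 held it on both strands, once each, and Slc50a1 held it once. The matches describe letters in the windows, not bound sites.

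Chromosome 15 carried 4 of the 14 members higher in AFT024 cells, namely Slc38a4, Slc38a1, Slc48a1 and Slc4a8. The 567 other genes of that chromosome had a median log2 ratio of 0.53 in AFT024 against BFC012 cells, with 107 higher and 9 lower, and the medians of the other chromosomes ran from -0.25 to 0.20. The 11 members on chromosome 15 had a median of 0.71, with 4 higher and 1, Slc1a3, lower. From Slc38a1 to Slc4a8 (chr15:96571417-100823968) 22 of 69 other genes were higher and 1 was lower, with a median of 0.91. The same chromosome also had the highest median between the exosomes, at 0.25. The part of this shift in the 4 members was not tested.

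**Figure D5:**
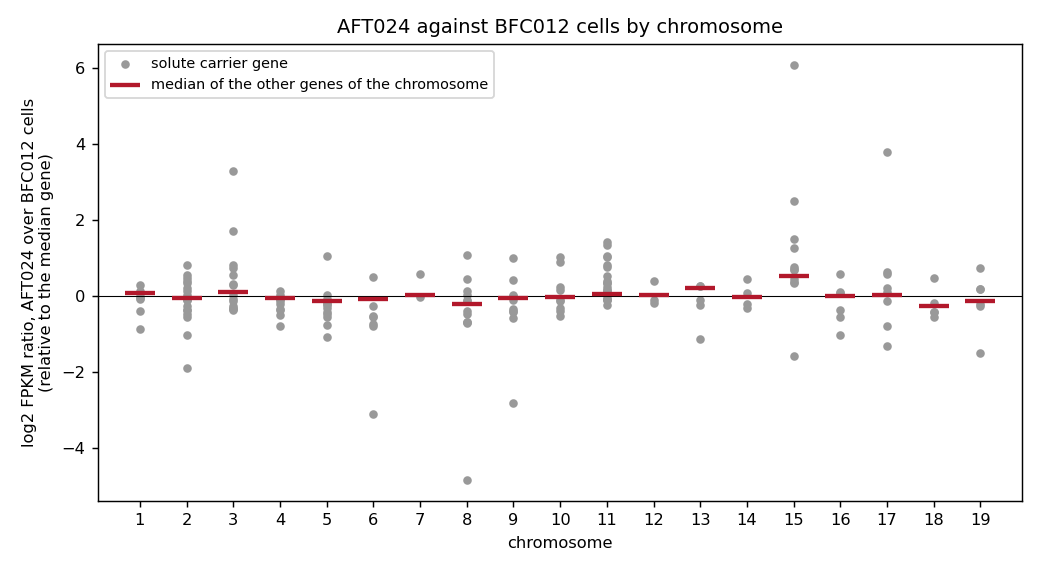
Log2 FPKM ratio of AFT024 over BFC012 cells relative to the median gene, by chromosome, with each member as a grey point and the median of the other genes as a red bar. The bar of chromosome 15 stands at 0.53, above those of the other chromosomes, and the members on it reach from Slc1a3 to Slc38a4.

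Exosomes of the 2 lines were compared in the same way, with fewer reads. In AFT024 exosomes 10 members were higher, where 6.51% of all genes were higher, and 7 were lower, where 6.93% were lower than in BFC012 exosomes. These are 5.95% and 4.17% of the members. The median gene stood at -0.23 before centring. On FPKM as deposited, with reads not used, 8 were higher and 13 lower, and the share of all genes on that scale is not given here.

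This comparison shares no group with that of the cells. Of the 14 members higher in AFT024 cells 7 were also among the 10 higher in AFT024 exosomes, which is 4.17% of members where 2.403% of all genes were higher in both. They were Slc38a4, Slc38a1, Slc48a1, Slc5a7, Slc6a17, Slc4a8 and Slc27a1, of which Slc5a7 was a member through AFT024 cells alone. Slc38a1 had 15.02 FPKM and 2185 reads in AFT024 exosomes, against 5.41 FPKM and 1052 reads in BFC012 exosomes, a ratio in reads of 3.63 (3.37 to 3.91). Slc48a1 had 95.5 FPKM and 3568 reads in AFT024 exosomes, against 32.98 FPKM and 2006 reads in BFC012 exosomes, a ratio in reads of 3.11 (2.94 to 3.28). For Slc38a4 the ratio in reads was 8.502 (5.94 to 12.5), for Slc4a8 it was 10.3 (6.11 to 18.3), and for Slc6a17 and Slc5a7 a single read stood in BFC012 exosomes, with 83 and 85 in AFT024 exosomes. Slc7a2 and Slc35f2 were lower in both comparisons. Slc7a2 had 0.168 FPKM and 20 reads in AFT024 exosomes, against 6.66 FPKM and 1390 reads in BFC012 exosomes, a ratio in reads of 0.0251 (0.0153 to 0.03899). For Slc35f2, AFT024 exosomes had 0 reads against 113 in BFC012 exosomes, and with 3 reads as the limit of a count of 0 its ratio was at most 0.0464.

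Members called between the exosomes and not between the cells were 8. Slc7a11 had 6.23 FPKM and 64 reads in AFT024 exosomes, against 1.53 FPKM and 25 reads in BFC012 exosomes, a ratio in reads of 4.47 (2.78 to 7.41), while its cells had 16.5 FPKM and 411 reads in AFT024 cells, against 9.04 FPKM and 263 reads in BFC012 cells. Slc1a4, a neutral amino acid exchanger, was higher with 3.52 FPKM and 274 reads in AFT024 exosomes, against 1.45 FPKM and 152 reads in BFC012 exosomes, a ratio in reads of 3.15 (2.57 to 3.87). Slc7a14 was higher on 18 reads in AFT024 exosomes against 9 in BFC012 exosomes. Of 23 amino acid carriers, 6 were thus higher and 1 lower in AFT024 exosomes, where 6.51% of all genes were higher and 6.93% lower. These counts were not tested. Lower were Slc26a6, at 22.1 FPKM and 201 reads in AFT024 exosomes, against 60.4 FPKM and 1015 reads in BFC012 exosomes, Slc9a8, at 11.3 FPKM and 851 reads in AFT024 exosomes, against 30.8 FPKM and 3103 reads in BFC012 exosomes, and the anion exchanger Slc4a2, at 3.09 FPKM and 293 reads in AFT024 exosomes, against 13.3 FPKM and 1560 reads in BFC012 exosomes. Slc37a3 and the zinc importer Slc39a3 were lower as well, with ratios in reads of 0.4197 (0.383 to 0.459) and 0.431 (0.366 to 0.506). A call in exosomes without one in cells is no test that the 2 differ.

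FPKM and reads disagreed for some members. Slc2a3, the glucose transporter GLUT3, had 17.8 FPKM from 10 reads in AFT024 exosomes, against 0.975 FPKM from 6 reads in AFT024 cells, and was called higher there with a ratio in reads of 9.72 (3.202 to 32.6). In BFC012 exosomes it had 3.23 FPKM from 32 reads, against 1.92 FPKM from 198 reads in BFC012 cells, where FPKM stood above that of the cells and the ratio in reads was 0.502 (0.334 to 0.732). Slc25a26 and Slc16a6 are among the members listed at 0 FPKM in groups with 20 or more reads. Slc15a2, Slc16a4 and Slc18a2 had under 10 reads in all groups. Around the limit of 1 FPKM, Slc16a11, Slc16a4, Slc7a4 and Slc18a2 lay just inside with highest values of 1.04, 1.06, 1.07 and 1.09 FPKM, and Slc38a9, Slc2a6, Slc13a1 and Slc23a1 just outside with 0.972, 0.800, 0.741 and 0.634 FPKM.

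Some carriers have reads and no FPKM in the table used here. The read tables name 58 solute carrier symbols that the FPKM table does not list, of which 17 had 20 or more reads in a group and 11 of those lie on chromosome X. Slc7a5, the light chain that pairs with Slc3a2 to exchange large neutral amino acids, had 673 reads in AFT024 exosomes and 1088 in BFC012 exosomes, against 9270 in AFT024 cells and 13514 in BFC012 cells. Its ratio in reads of exosomes to cells was 0.424 (0.391 to 0.458) for AFT024 and 0.2502 (0.235 to 0.266) for BFC012. Its partner Slc3a2 had 0.391 (0.3597 to 0.425) for AFT024 and 0.2096 (0.193 to 0.227) for BFC012. Slc25a5, another ADP and ATP carrier, had ratios of 0.396 (0.332 to 0.470) in AFT024 and 0.391 (0.345 to 0.442) in BFC012. Slc16a3, the lactate exporter MCT4, was listed under 1 FPKM in all groups, with 0 reads in both exosome groups, against 12 reads in the cells of AFT024 and 14 in those of BFC012.

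Other membrane transporters were counted by the same rule. Of 21 ABC transporter genes at 1 FPKM or more, AFT024 exosomes had 2 higher and 5 lower than AFT024 cells, and BFC012 exosomes had 1 higher and 3 lower than BFC012 cells. Between the cells 2 were higher and 1 lower in AFT024. Set against AFT024 cells, AFT024 exosomes had 15.7% of all genes called up and 16.2% called down. For BFC012 exosomes against BFC012 cells these shares were 15.3% and 16.4%, and for AFT024 against BFC012 cells 5.61% and 3.77%. At such shares, these counts among 21 genes are not read as a result about ABC transporters. Of the 4 Slco organic anion transporters that passed, Slco2a1, the prostaglandin transporter, was higher in AFT024 cells with 33.8 FPKM, against 0.786 FPKM in BFC012 cells, a ratio in reads of 38.04 (33.3 to 43.7).

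The authors' deposited tables hold q-values, which the tables' names tie to a Fisher test, on merged reads. By the q-values of the authors' deposited tables, 135 of 162 listed members had q under 0.05 for AFT024 exosomes against cells, 145 of 168 for BFC012 exosomes against cells, 136 of 168 between the cells and 111 of 168 between the exosomes. These q-values take in counting error and no spread between samples. For AFT024 exosomes against cells 16224 entries were listed, and 43629 for each other comparison. The share of all genes with q under 0.05 is not given here, so these counts are not read as a result about the members. Of the 168 members, 78 met the 2-fold rule in none of the 4 comparisons. The share of all genes that met it in none is not given here.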

How the data were processed

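PolyA RNA of exosomes and cells was prepared with a kit that does not mark strand, per the labels' protocols. The submitters' processing notes name TopHat, Cufflinks, Bowtie and, as build, mm10. They give neither roles nor versions. For the annotation release and the read counter, no name is given in the sources used here. FPKM was made by the authors, per the file headers, with 1 merged value per group. The deposited read tables hold normalized reads, per the file headers, that is, a count signal divided by a size factor of each compared pair. The deposited p-value and q-value columns, ratio (fold) columns and log2 columns are the authors' own, and of these only q-values are printed. The small RNA tables were not used here, and 0 columns of values per group were left unused in the polyA tables.

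Whole reads were recovered from the normalized reads. In every column 100% of values were whole within 0.01 reads, and totals ran from 9038471 to 39385534 reads per group. Of the genes at 1 FPKM or more, 14859 (99.27%) were matched to reads. Reads were scaled by median-of-ratios size factors over the 4 groups. No count test was run, since each group holds 1 merged value. Intervals are exact Clopper-Pearson at 95% and a count of 0 allows 3 reads. PCR reads without molecular identifiers are not independent molecules, so intervals and limits cover counting error only. The scripts were tested on simulated data. Alternatives were other added values, filters, scales and thresholds. Python 3.11.15, numpy 2.4.6, pandas 2.3.3, scipy 1.17.1 and matplotlib 3.10.9 were used.

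Members and lists were chosen with earlier results of these data known. Named genes are, in each comparison, the 8 called members farthest up and the 8 farthest down with 10 FPKM or more in the higher group, the highest member of each class, a fixed list of transporters, members called in opposite directions or with opposite scales, and those nearest the FPKM limit. Other members named to account for counts were chosen after their values were seen. Classes follow family numbers, so that Slc5a7, which carries choline, counts among the sugar transporters. Some results are not reported here.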

Additional observations from a re-analysis of the deposited data

Results flagged for a closer look

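Slc7a2 was called higher in AFT024 exosomes than in AFT024 cells and lower in BFC012 exosomes than in BFC012 cells. Its log2 FPKM change of exosomes against cells, relative to the median gene of each line, was 2.46 higher in AFT024 than in BFC012. The difference between the lines was not tested, as each group holds 1 merged value. The call in AFT024 rests on 20 reads in exosomes and 35 in cells. There the log2 FPKM ratio was 0.03 before centring at the median gene, so the FPKM scale was passed by centring alone.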

How the results depend on the processing

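No paired analysis was possible because the tables hold 1 merged value per group, and for the same reason leaving out replicates was not run. The counts of members called moved by over 1.5 times under several alternatives, and the cause was not tested. Shares of all genes called under the alternatives are not given here. With 0.1 added to FPKM, 17 members were higher and 13 lower in AFT024 exosomes against BFC012 exosomes. With 5 added, 7 were higher and 24 lower in AFT024 exosomes against cells, 7 higher and 25 lower in BFC012 exosomes against cells, 6 higher and 2 lower in AFT024 against BFC012 cells, and 2 higher between the exosomes. A filter of 5 FPKM left 14 higher in AFT024 exosomes against cells, and 7 higher and 3 lower between the cells. With no filter 301 symbols were described, and 7 were higher in the exosomes of AFT024 and 7 in those of BFC012. On FPKM as deposited, 5 were higher and 100 lower in AFT024 exosomes against cells, 5 higher and 85 lower in BFC012 exosomes against cells, and 13 lower between the exosomes. Of the called members, Slc9a8, at -0.0013, Slc30a4, at -0.015, and Slc37a3, at -0.042, then changed sign in AFT024 exosomes against cells. With these 3, the members that changed sign were 52 in AFT024 and 42 in BFC012 exosomes against cells, 5 between the cells and 26 between the exosomes, and the others were not called. On reads alone 60 were lower in AFT024 exosomes against cells, 31 higher and 62 lower in BFC012 exosomes against cells, and 24 higher and 21 lower between the exosomes. At 1.5-fold 31 were higher and 64 lower in BFC012 exosomes against cells, 26 higher and 19 lower between the cells, and 26 higher and 22 lower between the exosomes. At 4-fold 3 were higher and 9 lower in AFT024 exosomes against cells, 1 higher and 8 lower in BFC012 exosomes against cells, 4 higher and 2 lower between the cells, and 1 higher and 1 lower between the exosomes.

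Members called in opposite directions in the exosomes of the lines numbered 1. They were 2 on reads alone and at 1.5-fold, and 0 with 5 added, with no filter, on FPKM as deposited, at 4-fold and with FPKM scaled to the median gene before 1 is added. That last alternative and a minimum of 20 reads in a group were chosen after seeing the data. With FPKM scaled first, 20 of the 23 higher and 36 of the 37 lower members of AFT024 exosomes and 17 of the 18 higher and 39 of the 41 lower members of BFC012 exosomes kept their calls, and all calls between the lines were kept. Over 48 named members and these alternatives, 2071 of 2272 values kept their call or lack of one, 199 gained or lost a call with no turn in a called direction, and 2 called values, of Slc9a8 and Slc37a3, changed sign. Values that were not called are counted here by call alone, whatever their sign.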
